A study of Caenorhabditis elegans with 2 samples.

Results

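The neuropeptide and insulin-like genes of the nematode Caenorhabditis elegans were taken as the protein-coding genes of the Ensembl WBcel235 annotation whose names begin with flp, nlp or ins and a number. There were 140 of them among 19973 nuclear protein-coding genes, with 31 flp, 71 nlp and 38 ins genes, and the other 19833 genes served for comparison. The series mapped CEH-58, a homeodomain protein, by chromatin immunoprecipitation followed by sequencing (ChIP-seq) with an antibody to GFP. The chromatin came from whole young adults at 65 hours, grown from bleached eggs through a starved L1 stage. Both samples were the strain OP808, in which the transgene wgIs808 carries ceh-58 fused to TY1, EGFP and 3xFLAG together with an unc-119(+) rescue in an unc-119 (tm4063) background. They were 2 biological replicates of 1 group, without a second genotype, treatment or stage, so every comparison lay between genes or between the replicates. The fusion came from 1 transgenic line. Each value came from many pooled animals and all their tissues, so how many cells carried the fusion at a promoter and how strongly each did so cannot be told apart. The sequencing depth was unknown, and control data were not used here.

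Neuropeptides and insulin-like peptides are made as precursors that pass through the secretory pathway, are cut by proprotein convertases and are released from dense core vesicles. The flp genes encode FMRFamide-like peptides, which end in an amidated arginine and phenylalanine and act mostly on G protein-coupled receptors. The nlp genes are a mixed class of other neuropeptides, some of them antimicrobial-like peptides of the epidermis, and the ins genes encode insulin-like peptides, which act on the receptor DAF-2 as agonists or antagonists in growth, dauer formation and lifespan. Homeodomain proteins bind short AT-rich words in DNA, and in C. elegans many of them set the identity of neurons, including their peptides.

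The names were checked against the annotated coding sequences. An RFG triplet followed by a lysine or arginine, the mark of an RFamide precursor, was coded by 29 of the 31 flp genes, and flp-21 and flp-33 lacked it. It was absent from all 71 nlp and all 38 ins genes and was coded by 0.751% of the other genes. At least 6 cysteines, which insulin-like folds need for their disulfide bonds, were coded by 38 of 38 ins genes and by 0 flp and 0 nlp genes, against 56.9% of the other genes. The other genes were also longer, with a median of 330 residues against 95 for flp, 88 for nlp and 103.5 for ins.

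For each gene the candidate of highest signal was taken among candidates whose summit lay from 1000 bp upstream to 200 bp downstream of an annotated start. Candidates came from a long ranked list of 105945 intervals that compared the replicates, most of which do not pass the authors' threshold, so a candidate is not a called peak. The sequences below, for 2 genes of each family, show the DNA around summits among the highest of their family. The irreproducible discovery rate (IDR) of these candidates was 0.0473 at flp-5, 0.188 at flp-11, 0.132 at nlp-36 and 0.184 at nlp-21. It was 0.383 at ins-6 and 0.419 at ins-10. The sequences leave out the first chromosome, which holds the 3 highest ins genes, and nlp-76, which had no run of 60 bases there free of untranslated sequence. They run 5′ to 3′ on the strand of the gene in WBcel235 (RefSeq), from 100 bases before the summit to 100 after it. Bases annotated as untranslated were left out, which shortened flp-5 and ins-10 to a stretch that begins at the ATG. At flp-5 this stretch lies beside the summit, and at ins-10 it holds it. Capitals mark 3 words that homeodomains bind, on either strand: the palindrome TAATTA, the variant TTAATT and a further one, CAATTA.

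flp-5 (chrX:8528322-8528392, plus strand): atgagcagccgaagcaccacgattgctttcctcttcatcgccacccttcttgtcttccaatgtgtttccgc

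flp-11 (chrX:4677785-4677985, minus strand): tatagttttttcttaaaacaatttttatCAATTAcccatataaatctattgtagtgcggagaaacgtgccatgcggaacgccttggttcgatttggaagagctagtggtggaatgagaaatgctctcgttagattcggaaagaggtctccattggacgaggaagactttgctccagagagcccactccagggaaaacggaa

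nlp-36 (chrIII:9488798-9488998, plus strand): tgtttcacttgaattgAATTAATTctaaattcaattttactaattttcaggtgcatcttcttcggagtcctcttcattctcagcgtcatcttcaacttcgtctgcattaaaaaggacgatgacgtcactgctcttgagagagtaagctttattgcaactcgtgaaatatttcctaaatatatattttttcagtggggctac

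nlp-21 (chrIII:11394108-11394308, minus strand): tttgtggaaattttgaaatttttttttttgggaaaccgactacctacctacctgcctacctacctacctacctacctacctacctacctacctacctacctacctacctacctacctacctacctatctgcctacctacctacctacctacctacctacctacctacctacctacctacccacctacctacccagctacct

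ins-6 (chrII:6000075-6000275, plus strand): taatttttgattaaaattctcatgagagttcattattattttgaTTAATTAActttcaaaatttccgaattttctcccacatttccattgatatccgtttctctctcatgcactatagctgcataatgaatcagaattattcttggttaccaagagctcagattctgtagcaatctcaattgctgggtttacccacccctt

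ins-10 (chrV:14034008-14034113, plus strand): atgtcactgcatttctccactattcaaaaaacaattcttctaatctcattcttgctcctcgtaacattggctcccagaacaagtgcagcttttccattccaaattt

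The words were found in 3 of these 6 sequences, namely CAATTA at flp-11, TTAATT overlapping its own reverse complement at nlp-36, and the same with TAATTA inside it at ins-6. The nlp-21 sequence is a run of short repeats, and 92.0% of it was soft-masked in the reference. Within 100 bp of the highest summit of a gene, TAATTA was found at 9 of the 115 members with a candidate (7.83%) and at 7.57% of the other genes. TTAATT was found at 20.9% of members and 22.5% of other genes, and CAATTA at 15.7% and 13.8%. By family, TAATTA lay at 7.14% of flp, 4.92% of nlp and 15.4% of ins summits, the last being 4 of 26 genes. Words were searched on both strands, overlaps between words were counted for each, and a match is a description of the letters only.

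No member had a thresholded peak in its window. The conservative list, the stricter call across both replicates, had a summit in the window of 0 of 140 members, against 0.801% of all protein-coding genes. The optimal list from pooled reads also had 0, against 1.18% of all genes. Each replicate's own thresholded list had 0 too, against 53 of the 19973 genes for replicate 1 and 24 for replicate 2. A count of 0 in 140 leaves room for a true share of 2.14%, taking 3 counts as the limit of a count of 0. That is above the background share of each of these lists, so a share equal to the background could not have been told from 0. The highest IDR score of a member, a scaled log of the irreproducible discovery rate with a maximum of 1000, was 550 at flp-5, while the lowest score in the conservative list was 830. At an IDR of at most 0.1 there were 7 members, flp-5, flp-14, flp-27, nlp-45, nlp-50, ins-24 and ins-26, or 7 of 115 against 7.59% of all genes with a candidate.

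Most members had a candidate near a start, as did most genes. A candidate was found at 115 of the 140 members (82.1%, exact Clopper-Pearson 95% interval 74.8 to 88.1), against 78.8% of all protein-coding genes. The share was 28 of 31 for flp (90.3%, interval 74.2 to 98.0), 61 of 71 for nlp (85.9%, 75.6 to 93.0) and 26 of 38 for ins (68.4%, 51.3 to 82.5). The 3 intervals overlap one another, and each contains the share of all genes. Intervals cover counting error only and treat genes as independent, although some share a neighbourhood. In genes with 1 annotated start the order of the families was the same, with 90% of 20 flp, 84.5% of 58 nlp and 69.7% of 33 ins genes, against 76.4% of other genes. Candidates per kb of window were 1.38 for flp, 1.25 for nlp and 0.987 for ins, with 1.09 for other genes.

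**Figure D1:**
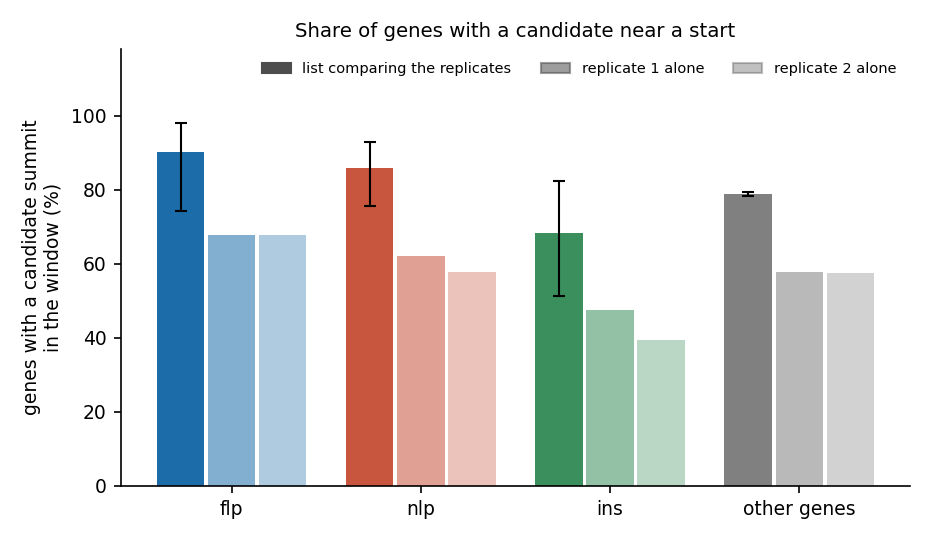
Percent of genes with a candidate summit in the promoter window, for the flp, nlp, ins and other genes. Dark bars use the list comparing the replicates (error bars, exact 95% intervals), mid and pale bars the own lists of replicate 1 and replicate 2. The ins bars are the lowest in all 3 lists, at 68.4%, 47.4% and 39.5%.

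The replicates' own candidate lists are shorter, and fewer members had a candidate in each. Replicate 1's list reached 21 flp, 44 nlp and 18 ins genes, and replicate 2's reached 21 flp, 41 nlp and 15 ins genes. Other genes were reached at 57.9% by replicate 1's list and at 57.5% by replicate 2's. A candidate was present in both lists at 57 of 140 members, 17 of them flp, 29 nlp and 11 ins, against 40.4% of all genes. Neither list held one at 37 members (26.4%), against 24.96% of other genes. The plot of these shares shows ins lowest and flp highest in each list. Of the 25 members without a candidate in the list comparing the replicates, 4 had one in a replicate's own list, namely flp-22, flp-23, nlp-1 and nlp-11.

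Levels at members lay in the middle of those at other genes. Among genes with a candidate the highest signal had a median of 27.4 in members (quartiles 23.5 and 34.7) and 27.4 in other genes (20.5 and 35.3). The signal is the authors' own value per candidate, whose scale is not given in the sources used here. As a percentile among all 15744 protein-coding genes with a candidate, the median member stood at 49.9. The lowest member was nlp-64 at 8.07 and the highest flp-5 at 51.7, while other genes ranged from 2.11 to 283.9. In the top 10.0% of all genes with a candidate lay 7 of 115 members, namely flp-5, flp-11, nlp-40, nlp-36, nlp-76, ins-24 and ins-30, and in the bottom 10% lay 8.

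The order of the families by level was not shared by the replicates. In the list comparing them the median signal was 28.9 in flp, 26.1 in nlp and 30.2 in ins, with median percentiles of 55.3, 45.2 and 59.8. In replicate 1's own list the median percentiles were 37.8 for flp, 57.1 for nlp and 47.6 for ins, and in replicate 2's they were 48.0, 54.6 and 41.9. The nlp genes, lowest in the list comparing the replicates, were thus highest in each replicate alone. With members lacking a candidate counted as lowest, the medians were 27.6 for flp, 25.2 for nlp and 24.0 for ins, against 23.8 for other genes.

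**Figure D2:**
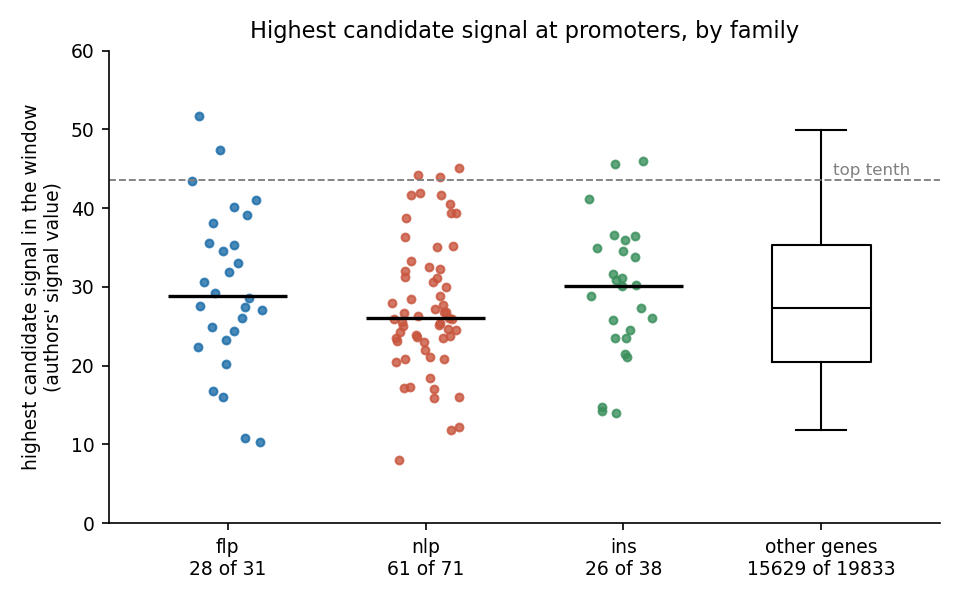
Highest candidate signal in the promoter window (authors' signal value) for each flp, nlp and ins gene with a candidate, 1 point a gene, with a bar at the family median (28.9, 26.1 and 30.2). The box shows the median and quartiles of other genes with whiskers at their 5 and 95 percentiles, and the dashed line marks the start of the top 10% of all genes with a candidate.

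Among the FMRFamide-like genes, flp-5 had the highest candidate of all members (chrX:8528174-8528409, summit 41 bp downstream of a start, in its own exon). Its signal was 51.7, with 23.6 in the first replicate column of the list and 26.5 in the second, and its percentile was 96.1. The columns do not name their replicates, but the replicates' own lists gave the same values, 23.6 in replicate 1 and 26.5 in replicate 2. The first column also equalled replicate 1's value, and the second replicate 2's, at flp-2, flp-14 and nlp-14. The next, flp-11, encodes sleep-promoting peptides of the neuron RIS, and its summit lay 181 bp downstream of a start in its own exon. Its signal was 47.4 with columns of 16.4 and 23.9, and replicate 2's own list held no candidate there. Within the narrower window of 500 bp upstream to 100 bp downstream flp-11 had 2.25, and replicate 1's highest candidate with its summit in the full window had 4.08. At flp-25 the signal of 43.4 came with unequal columns, 29.5 and 14.8, and its summit lay in an exon of another gene, 956 bp from its start. Replicate 2's own list held no candidate that overlapped it, and in the narrower window flp-25 had 23.2.

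Of the following flp genes, flp-27 had a signal of 41.0 with columns of 24.2 and 20.2, and its summit lay in an intron of another gene. At flp-14 the signal was 40.1 with columns of 20.4 and 26.3, and 22.4 in the narrower window. At flp-28 it was 39.1 with columns of 11.0 and 24.6, so the columns differed 2.24-fold. Replicate 1's own list held no candidate that overlapped that of flp-28. Both columns were above the medians of all genes with a candidate, 14.9 and 12.8, in all of these flp genes but flp-28. Lower values were found at other flp genes of known function: flp-13, whose peptides act in sleep after cellular stress, had 34.6, flp-18 had 25.0, flp-1, which acts in locomotion, had 22.4, and flp-21, a ligand gene of the receptor NPR-1, had 16.8. The lowest were flp-9 at 10.8 and flp-17 at 10.3, and flp-15, flp-22 and flp-23 had no candidate. All 13 flp genes on X had one, with a median signal of 30.6, and 15 of 18 on the autosomes did, with 27.6. Other genes had one at 82.7% on X, with a median of 27.04, and at 78.2% on the autosomes, with 27.5.

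Among the nlp genes, nlp-40, which encodes a peptide released by the intestine in the defecation rhythm, had a signal of 45.1 with columns of 21.3 and 21.03. Its summit lay in its own intron, 541 bp upstream of the nearest of its 3 starts. Replicate 2's own list held no candidate that overlapped this one, and its highest elsewhere in the window had 18.4. For nlp-36 the signal was 44.2 (columns 25.9 and 16.6), and for nlp-76 it was 44.0 (29.8 and 14.6). The first was 167 bp and the second 27 bp downstream of a start, both in exons of the gene itself, and in the narrower window nlp-36 had no candidate. The repeat at nlp-21 had 41.9, with columns of 30.7 and 14.2, and lay 946 bp upstream; in the narrower window nlp-21 had 12.04. For nlp-12, a cholecystokinin-like gene expressed in the neuron DVA, the signal was 41.7 (21.4 and 19.6), and for nlp-14, an orcokinin-like gene, it was 41.6 (20.04 and 23.9).

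The summits of nlp-12 and nlp-14 lay 71 and 62 bp upstream of their starts, between genes. The score was highest among nlp genes at nlp-45 (495), whose signal of 33.3 was below those of the 6 named above. Its columns were 30.6 and 18.9, and both were above the medians of all genes. The 6 genes nlp-27 to nlp-31 and nlp-34 on V span 10946 bp, and among them is nlp-29, an antimicrobial-like gene induced in the epidermis by fungal infection. All 6 had a candidate, with signals from 23.0 to 32.2 and a median of 25.9, and nlp-31 and nlp-34 shared the same one. No candidate was found at 10 nlp genes, nlp-1, nlp-11 and nlp-49 among them.

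Among the insulin-like genes the 3 highest were neighbours on chromosome I. There ins-27, ins-24, ins-30 and ins-26 lie within 10542 bp. At ins-24 the signal was 46.0 with columns of 22.3 and 22.5, and at ins-30 it was 45.6 with columns of 17.5 and 20.7. At ins-26 it was 41.2 with 25.7 and 18.4, while the fourth gene, ins-27, had 21.5. These are 4 separate candidates, and that of ins-26, 128 bp downstream of the start, was lost in the narrower window. Replicate 2's own list held none in the windows of ins-24 and ins-27. Of the other ins genes on chromosome I, ins-25 had 13.95, ins-28 had 14.2 and ins-29 had 27.4. Farther away on it, ins-36 had 25.8, ins-33 had 30.9 and ins-18 had 31.2.

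Next came ins-6, whose peptide acts in the exit from dauer, with 36.5 and columns of 22.6 and 10.6. Replicate 2's own list held no candidate in the ins-6 window. At ins-10 the signal was 36.4 with columns of 11.2 and 24.0, and at ins-13 it was 36.0 with 17.3 and 13.8. The columns of ins-6 and of ins-10 thus leaned in opposite directions, each by 2.14-fold. By chromosome, all 10 ins genes on I had a candidate and 16 of the 28 elsewhere did, with 0 of 4 on IV. Other genes on I had one at 77.4% and those on IV at 73.3%. The gene runs ins-21 to ins-23 on III and ins-7 and ins-8 on IV had no candidate at all, and neither did ins-1, ins-2 or ins-4. In runs of ins genes within 5000 bp of each other 14 of 22 had one, and outside them 12 of 16. The divergent pair ins-19 and ins-31 shared 1 candidate of 23.5.

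The ins windows without a candidate were poor in G and C. The median GC content of the window was 32.8% in the 12 ins genes without a candidate and 35.3% in the 26 with one. In flp it was 35.8% in the 3 without and 37.3% with, in nlp 34.8% and 35.1%, and in other genes 33.1% and 35.5%. All 12 ins windows without a candidate lay below 35.5%, the median of genes with one, and so did 1 of the 3 flp windows, 6 of the 10 nlp windows and 3167 of the 4204 windows of other genes without one. Signal moved with GC content too: the Spearman correlation between signal and GC around the summit was 0.367 over 115 members and 0.354 over 15629 other genes, which share the same libraries and base composition. The part of GC content in these differences was not tested.

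**Figure D3:**
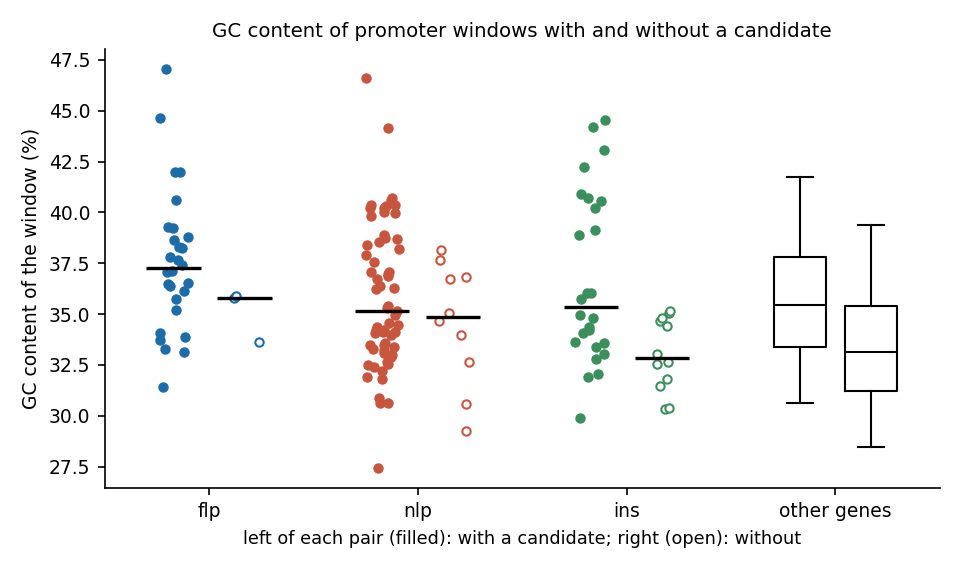
GC content (%) of the promoter windows of genes with a candidate (filled, left) and without (open, right), 1 point a gene, with bars at the medians, and boxes with whiskers at the 5 and 95 percentiles for other genes. The 12 ins genes without a candidate lie between 30.3% and 35.1%.

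No member was in the top 10% of both replicate columns. Both held 0 of 115 members there, against 2.71% of all genes with a candidate. The members are few for so small a share, and the difference was not tested. The count also depends on the cut. In the first and second column flp-5 stood at percentiles of 85.0 and 96.5. For flp-27 they were 86.5 and 86.1, and for nlp-50 they were 86.1 and 85.2. The top 10% of 1 column only held 19 members (16.5%), against 14.6% of other genes. In 70 members the first column was the higher and in 45 the second, and in the other genes 9256 and 6373, a similar lean. The median ratio of the higher to the lower was 1.56 in members, with 1.53 in other genes. Over the 115 members the Spearman correlation between the columns was 0.0218, and over the 15629 other genes it was 0.246. By family it was 0.236 over 28 flp, -0.0734 over 61 nlp and 0.0670 over 26 ins genes. The candidate of each gene was picked by the list's own signal, which draws on both replicates, and not by these columns. Genes are also not replicates, so these correlations describe the list.

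**Figure D4:**
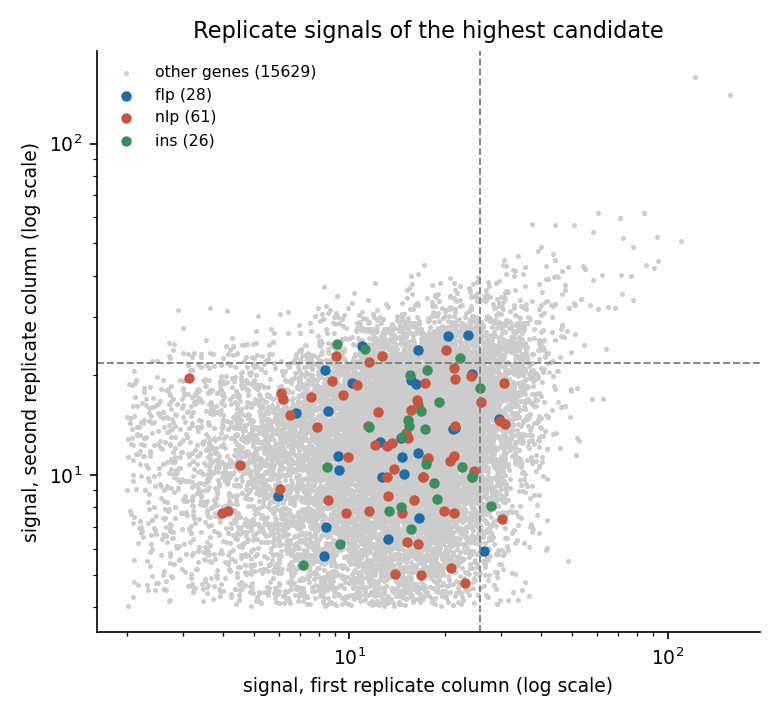
Signal of the highest candidate of each gene in the first (x) and second (y) replicate column, both log axes, with members in colour over the other genes in grey. Dashed lines mark the start of the top 10% of each column, and 0 of the 115 members lie beyond both.

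Summit positions in members and in other genes were set side by side, without a test. The summit lay between genes in 66.1% of members and 46.6% of other genes, and in an exon of another gene in 4.35% and 18.1%. The nearest protein-coding start was the gene's own in 93.9% of members and 82.9% of other genes. A candidate was shared with a further protein-coding gene in 9.57% of members, 0 of them flp, and in 20.7% of other genes. Summits downstream of the start made up 20% in members and 21.6% in other genes. Within 200 bp of a tRNA, snoRNA or snRNA gene lay the summit of 1 member, ins-37, beside the snRNA gene F08G2.9, against 1.09% of other genes.

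**Figure D5:**
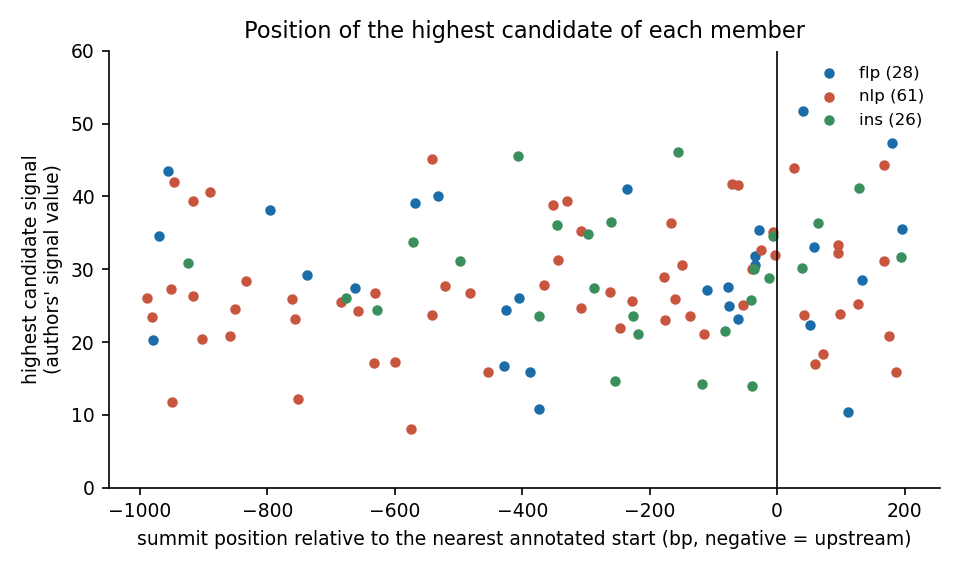
Position of the highest candidate summit relative to the nearest annotated start of each of 115 members (x, bp, negative is upstream) and its signal (y, authors' signal value), coloured by family. Summits spread over the window, 92 upstream and 23 downstream, and the highest, flp-5, lies 41 bp downstream.

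A called peak was reached only in a wider window, from 2000 bp upstream to 500 bp downstream, and at 1 member, nlp-76. In that window 1.61% of all genes had a conservative peak. The peak (chrX:12665100-12665335) had its summit 1315 bp upstream of nlp-76, a signal of 82.8 and a score of 1000, and ranked 133 of 483 in the conservative list. Replicate 1's own list gave 48.3 there and replicate 2's gave 33.8. The nearest start was that of nlp-76, but the summit lay in an intron of nhr-17, a nuclear hormone receptor gene, 10 bp from a tRNA gene (WBGene00009555, X, 12665228 to 12665311, plus strand). The sequence around it is shown because it is the conservative peak that the wider window added. Capitals mark GTTCGA on either strand, a word within the B box of tRNA genes that was looked for after this sequence was seen.

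nlp-76 distal peak (chrX:12665118-12665318, minus strand): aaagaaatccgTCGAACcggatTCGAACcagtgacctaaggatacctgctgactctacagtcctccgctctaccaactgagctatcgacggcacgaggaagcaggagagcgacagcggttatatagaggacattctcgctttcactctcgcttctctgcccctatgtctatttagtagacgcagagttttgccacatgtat

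The word was found 2 times here, on the strand opposite to the one printed. Within 100 bp of the summit it was found at 13.9% of the 483 conservative peaks and at 8.08% of all candidates. Among the highest candidates of genes it was found at 3 of 115 in members (2.61%) and at 7.96% of 15744 over all genes. The candidate in nlp-76's own window, at 44.0, is another one and carried no RNA gene within 200 bp.

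The genes that make, release and receive these peptides were set beside them. Of 11 genes of precursor processing and amidation, 8 had a candidate (72.7%, against 78.8% of all genes), with a median percentile of 44.6. The carboxypeptidase gene egl-21 had the highest signal, 43.5 with columns of 23.6 and 23.7, followed by the amidating lyase gene pgal-1 with 42.9 and by kpc-1, a furin-like convertase gene, with 30.1. The convertase gene egl-3 had none. Of 10 genes of dense core vesicle release 8 had one (80%, also near the share of all genes), with a median percentile of 70.8. They were led by the kinase gene pkc-1 (51.9, columns 18.5 and 34.8), unc-31, which encodes CAPS (43.8), and unc-108, which encodes RAB2 (39.7).

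Of 104 neuropeptide receptor genes 68 had a candidate (65.4%, against 78.8% of all genes), with a median percentile of 49.2. Of the 104, npr-36 had a conservative peak in its window, a share close to the 0.801% of all genes. It had a signal of 61.3, columns of 33.9 and 28.7 and a score of 876, and dmsr-12 (40.7) and npr-33 (38.2) came next. The insulin receptor pathway downstream of the ins genes had candidates at 10 of 11 genes (90.9%) and a median percentile of 80.1. Its highest were the kinase genes pdk-1 (47.6) and sgk-1 (45.4) and the FOXO gene daf-16 (43.7), and the receptor gene daf-2 had 36.0. The summits of pdk-1 and sgk-1 lay at -1000 and -998 bp from a start (negative is upstream), at the edge of the window. That of daf-16 lay at -20 bp. Genes with 2 or more annotated starts had a median percentile of 61.3 over all genes and those with 1 start 45.1. The median number of starts was 2 in the release list, in the receptor pathway list and in the list of peptide genes with other names, and the part of it in their levels was not tested. Among 8 peptide genes with other names 7 had a candidate (87.5%) and the median percentile was 48.8. The highest were capa-1 (43.7), lury-1 (35.6) and pdf-2 (33.4).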

How the data were processed

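Anti-GFP ChIP-seq of 2 biological replicates was deposited as IDR-ranked candidate lists and thresholded lists on ce11, 8 lists in all, per the labels. The authors deposited a signal value per peak (column 7 and the replicate columns, unscaled here) and an IDR score, and a global IDR as −log10; the files carry no header. The aligner and peak caller are not named in the labels. Candidates and genes ended within the same 6 chromosomes of the reference WBcel235 (RefSeq sequence, Ensembl release 115 genes).

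Promoter windows (1000 bp before to 200 bp after) were drawn at 29784 starts of 19973 genes. Shares, medians and percentiles were computed with python 3.11.15, pandas 2.3.3, numpy 2.4.6, scipy 1.17.1 and matplotlib 3.10.9, after a check on simulated summits. No test was made over genes, and depth is unknown. Where a replicate is named, its own list was read. Alternatives were other lists, windows, starts, gene assignments, IDR cut-offs and the removal of RNA gene neighbourhoods.

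Members and lists were chosen with earlier results of these data known. Named are the 6 highest members of each family, families' members without a candidate where 5 or fewer, and the 3 highest of each related list; other genes named, such as nlp-45, nlp-50, flp-18 and daf-2, were chosen after their values were seen. So were window GC, numbers of starts, gene runs, chromosome counts, the both-column count, correlations, positions, protein features and the nlp-76 peak. Mitochondrial genes were left out. Sequences were to be the 2 highest of each family outside chromosome I; nlp-76 had under 60 bases free of untranslated sequence, so nlp-21 is shown.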

Additional observations from a re-analysis of the deposited data

How the results depend on the processing

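The number of members with a candidate, their median percentile and the count in the top 10% kept within the stated margins under the pooled list and the removal of candidates near RNA genes. They also did so under the wider window, the most upstream start and replicate 2's own list alone. There 128, 113 and 77 members had a candidate, the medians were 47.8, 51.8 and 49.3, and 5, 6 and 6 members were in the top 10%. The pooled list and the removal near RNA genes could change little. The pooled list gave the same signal at all 18 named members, and only 1 member had its highest candidate near an RNA gene. The demand for a signal above 0 in both columns removed no candidate used and is not counted. A count was held to be stable within 1.5 times, a share within its interval and a percentile within the spread of the 2 replicates' own values. Of 86 values under the other alternatives 54 stayed within these margins and 32 did not. In the replicates' own lists the members' median percentile was 45.7 to 49.3, flp 37.8 to 48.0, nlp 54.6 to 57.1 and ins 41.9 to 47.6, and the shares with a candidate were 67.7% for flp, 57.7% to 62.0% for nlp and 39.5% to 47.4% for ins, against 57.5% to 57.9% of other genes. The narrower window (500 bp upstream to 100 bp downstream) gave a members' median of 53.7 and, for nlp, 54.0 with a share of 66.2% (other genes 59.2%). The wider window gave 100% for flp (other genes 88.5%), medians of 48.1 for nlp and 45.7 for ins, and 1 thresholded peak. Using the most upstream start gave 49.0 for nlp, and the nearest start gave 48.8 for nlp and 53.8 for all members. At an IDR of at most 0.1 there were 7 members, 0 in the top 10%, a members' median of 10.3 (flp 10.3, nlp 3.61, ins 19.3, ranked among fewer genes) and shares of 9.68%, 2.82% and 5.26% of each family, against 6.17% of other genes. The signal of flp-11 was 2.25 in the narrower window, flp-25 had 23.2, flp-14 had 22.4, flp-28 had 29.0, nlp-40 had 30.9 and nlp-21 had 12.04, while nlp-36 and ins-26 had no candidate left. In the wider window flp-14 had 46.2, nlp-40 had 54.7, nlp-76 had 82.8 and ins-13 had 53.4. The causes were not tested. No paired analysis was possible because there is 1 group. Unknown depth limits all values, and 2 replicates give no error for a single gene.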
